A study of Mus musculus with 2 samples.

Results

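In single-cell RNA sequencing of ovaries from mouse pups at postnatal day 3, 249 of the 9186 barcodes with at least 5000 UMIs carried oocyte and granulosa transcripts together. A UMI, or unique molecular identifier, stands for 1 captured transcript. A barcode marks 1 droplet, which can hold a single cell, several cells or none. The barcodes were chosen by their own counts, as UMIs per 10000 UMIs of the barcode. The sum of Dazl, Sycp3 and Figla had to reach 10 (the germ gate), and the sum of Foxl2 and Kctd14 had to reach 2 (the granulosa gate). They are called double-gate barcodes here. Barcodes that passed the germ gate with a Foxl2 and Kctd14 sum under 2 are called oocytes. The granulosa class comprised barcodes with a Foxl2 and Kctd14 sum of at least 5 and a germ sum under 2.

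The study had 2 libraries of C57BL pups, 1 per group. Every mother was given melatonin (MLT) between embryonic day 16.5 and postnatal day 3. In the group titled DEHP_MLT the mother was gavaged with di(2-ethylhexyl) phthalate (DEHP), a plasticizer, and was given melatonin later in the day. In the group titled MLT, DMSO took the place of DEHP. No group without melatonin was analysed here, and how many pups went into a library is not stated in the labels. The sample titles and the names of the deposited tables conflict: the table of the sample titled MLT is named for DEHP_MLT, and the reverse. Titles were followed, so "the MLT library" and "the DEHP_MLT library" mean the samples with those titles, and a direction between the libraries would reverse if the table names were right. With 1 library per group no test between groups was possible, and every interval is a 95% interval that covers counting error only.

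An oocyte in a primordial follicle is enclosed by flat pregranulosa cells, which express Foxl2, the transcription factor that maintains the granulosa fate. Follicles form around birth as germ cell cysts break down, and the oocyte and its granulosa cells stay joined by gap junctions and adherens junctions. They exchange signals such as KIT ligand from the granulosa side and GDF9 from the oocyte. Oocytes that leave the resting pool grow, and raise the genes of the zona pellucida and of the maternal store of proteins for the embryo.

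The DEHP_MLT library held 214 double-gate barcodes of 4819, or 4.44% (95% exact binomial interval 3.88 to 5.06). The MLT library held 35 of 4367, or 0.801% (0.559 to 1.11). Most of that distance lies in the number of germ cells recovered, 721 against 155 barcodes past the germ gate. As a share of germ-gated barcodes the double-gate barcodes made up 29.7% (26.4 to 33.2) in the DEHP_MLT library and 22.6% (16.3 to 29.98) in the MLT library, and the intervals overlap. The remaining germ-gated barcodes were 507 and 120 oocytes. The granulosa class had 994 and 1491 barcodes. No double-gate barcode sequence occurred in both libraries, and 4 barcode sequences were shared by the tables in all.

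The gates describe how the barcodes were picked and are no finding. The germ sum had a median of 13.7 per 10000 UMIs in the double-gate barcodes labelled DEHP_MLT and 21.2 in the oocytes of that library. In the MLT library these medians were 13.9 and 22.2. The Foxl2 and Kctd14 sum had a median of 4.83 in the double-gate barcodes labelled DEHP_MLT, 0.268 in the oocytes and 11.5 in the granulosa class. Within the MLT library it was 5.99, 0.368 and 11.7. Double-gate barcodes thus lay between oocytes and granulosa cells on both axes. All 5 gate genes had a UMI in 192 of 214 and in 23 of 35 barcodes. The gates rested on a median of 59 germ UMIs and 20 granulosa UMIs per barcode in the DEHP_MLT library, and on 25 and 12 in the MLT library. Just inside the granulosa gate the sums were 2.05 (MLT) and 2.08 (DEHP_MLT), and just outside they were 1.87 and 1.97. At the germ gate the nearest sums inside were 10.1 and 10.0, and those outside were 9.95 and 9.99.

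**Figure D1:**
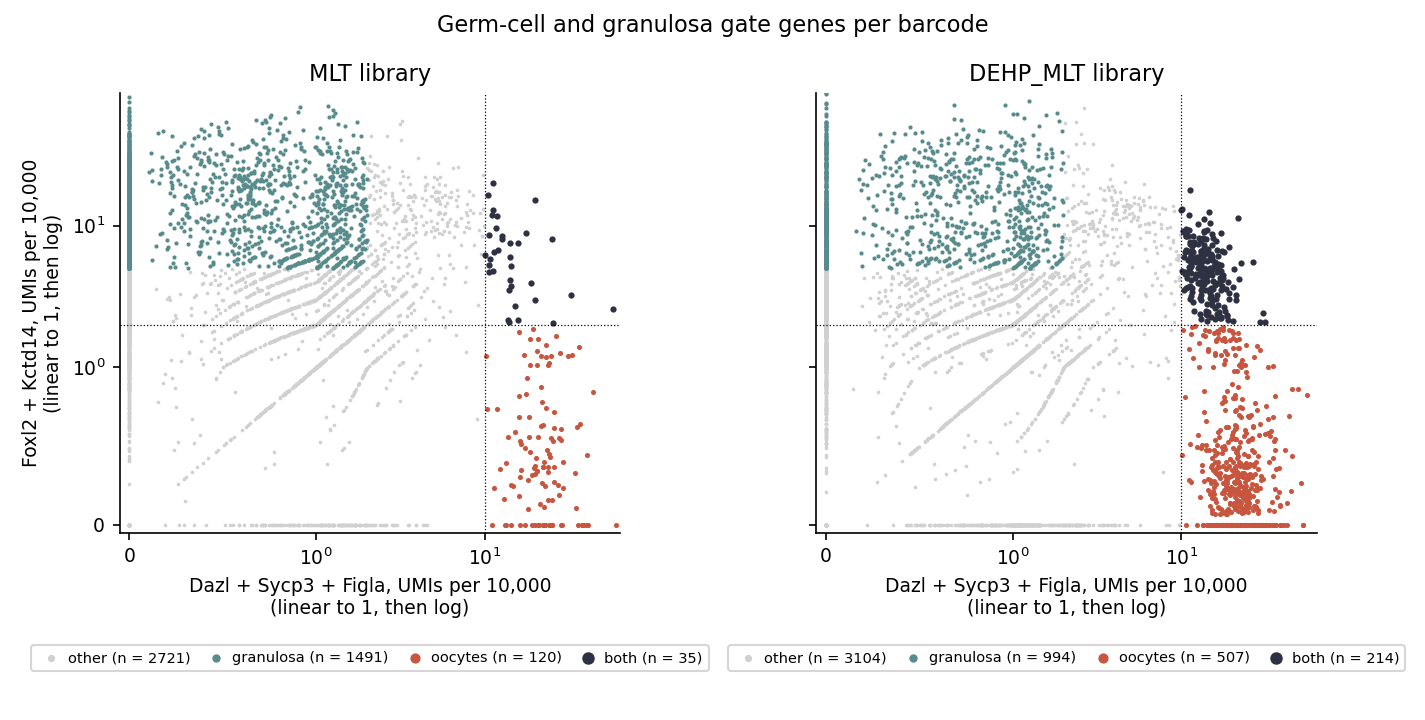
Sum of Dazl, Sycp3 and Figla (horizontal) against the sum of Foxl2 and Kctd14 (vertical), in UMIs per 10000 of the barcode, for each barcode of the 2 libraries; both axes are linear up to 1 and logarithmic above, and dotted lines mark the gates at 10 and 2. The 35 (MLT) and 214 (DEHP_MLT) double-gate barcodes sit between the oocytes and the granulosa class on both axes.

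In the DEHP_MLT library the germ-gated barcodes were unevenly spread along the Foxl2 and Kctd14 sum. There were 370 below 0.5 per 10000, 28 from 1.5 to 2, 23 from 2 to 2.5, 9 from 2.5 to 3, 35 from 3 to 4 and 47 from 4 to 5. Between 5 and 7 there were 61, between 7 and 10 there were 30 and between 10 and 20 there were 9. The range from 2.5 to 3 thus held fewer barcodes than the ranges on either side of it, which partly differ in width. For the MLT library there were 72 below 0.5, and the ranges from 2 to 5 held 3 or 4 barcodes each.

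Transcripts of Foxl2 and Kctd14 were also found in barcodes of cell types that should lack them. Of the barcodes past an endothelial, immune or erythroid gate, 21.8%, 11.4% and 25.5% reached a Foxl2 and Kctd14 sum of 2 in the MLT library, at median depths of 26924, 10805 and 12626 UMIs. Within the DEHP_MLT library the shares were 29.5%, 19.2% and 22.2%, at 20437, 10909 and 10806 UMIs. The germ gate was passed by 1 of 71 endothelial and 32 of 618 erythroid barcodes in the DEHP_MLT library and by none of these types in the MLT library. The share of germ-gated barcodes past the granulosa gate, 29.7% and 22.6%, is thus of the size seen in these barcodes. Passing a gate on 2 genes alone does not set germ-gated barcodes apart from these types. Whether these UMIs came from free RNA or from granulosa cells in the same droplets was not tested. At a stricter sum of 5, 13.9% of the germ-gated barcodes labelled DEHP_MLT (100 of 721; interval 11.4% to 16.6%) still passed, against 11.6% of endothelial, 2.74% of immune and 5.47% of erythroid barcodes. Of the germ-gated barcodes labelled MLT 13.5% (21 of 155) passed, against 5.04%, 1.90% and 6.38%. With a minimum of 20000 UMIs the MLT share was 5.10% (5 of 98; interval 1.68% to 11.5%). Beside it were 4.17% of endothelial, 6.67% of immune (1 of 15) and 20% of erythroid barcodes (2 of 10). The interval of that MLT share holds the endothelial and immune shares. The DEHP_MLT share was 15.1% (87 of 578), beside 10.2% of endothelial, 0 of 8 immune and 21.7% of erythroid barcodes (18 of 83). At this depth the germ-gated share was thus below the erythroid share in both libraries.

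Granulosa genes that the rule did not use were also counted. Each barcode was thinned to 5000 UMIs, and the genes with a UMI were counted among 22 other granulosa genes such as Amhr2, Inha and Wt1. For the DEHP_MLT library, 78.0% of double-gate barcodes had 3 or more of these genes, against 5.52% of oocytes, 52.8% of stroma, 28.4% of endothelial and 11.9% of immune barcodes, all below the granulosa gate. Under the MLT title the shares were 62.9%, 13.3%, 68.7%, 37.6% and 24.7%. The 22 genes thus do not mark granulosa cells alone, and stroma barcodes of the MLT library reached 3 of them more often than double-gate barcodes did. The granulosa class itself reached 85.6% and 88.1%. On the germ side, 3 or more of 16 meiotic genes were found in 86.0% and 71.4% of double-gate barcodes, and in 2.11% and 2.08% of the granulosa class. Both criteria were met at once by 141 of the 214 double-gate barcodes labelled DEHP_MLT (65.9%, interval 59.1% to 72.2%) and by 14 of the 35 labelled MLT (40%, 23.9% to 57.9%). Among oocytes 4.93% and 10.8% met both, and in the granulosa class 1.91% and 2.01%. The gates selected double-gate barcodes for both sides and held each of these classes low on one side. The differences thus largely follow from the selection, and these shares describe the barcodes and support nothing.

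Germ-gated barcodes were also counted past gates for other cell types. A gate for each other cell type was set at the same fraction of that type's own median as the granulosa gate, 17.4% in the DEHP_MLT library and 17.2% in the MLT library. In the DEHP_MLT library 214 of 721 germ-gated barcodes passed for granulosa, 25 for stroma, 4 for endothelium, 1 for immune cells and 4 for erythroid cells. Among MLT barcodes 35 of 155 passed for granulosa, 11 for stroma, 1 for endothelium, 0 for immune cells and 2 for erythroid cells. The granulosa counts are the double-gate barcodes themselves, chosen by that gate, so no ranking of types is drawn from them. The gates also lay at unlike distances from the oocyte medians. In the DEHP_MLT library they were 2 against 0.268 for granulosa, 6.90 against 0.548 for stroma and 4.16 against 0.0798 for endothelium. Stroma barcodes were common in both libraries: 59.0% and 67.8% of barcodes outside the germ gate passed that matched stroma gate, and 56.7% and 71.6% passed the granulosa gate. The 2 gates thus passed like shares of the other barcodes, while their shares of the germ-gated ones are not compared for the reasons above. The granulosa class was itself mixed, since 317 (31.9%) and 539 (36.2%) of its barcodes also passed the stroma gate.

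Double-gate barcodes did not hold more transcripts than oocytes. Their median was 41328.5 UMIs and 7408 genes in the DEHP_MLT library, against 71536 UMIs in oocytes and 14734 in the granulosa class. For the MLT library the median was 12924 UMIs and 4905 genes, against 71866 in oocytes and 14023 in the granulosa class. The quartiles were 22346.5 and 65260 UMIs in the DEHP_MLT library and 9009 and 59319 in the MLT library. The 5 deepest barcodes held 45.1% of all double-gate UMIs labelled MLT and 6.45% of those labelled DEHP_MLT, so sums over the 35 barcodes rest on a few of them. The median mitochondrial share was 4.34% against 5.23% in oocytes of the DEHP_MLT library and 3.33% against 4.64% in the MLT library. The MLT direction turned within depth ranges, with 2.45% against 1.25% under 20000 UMIs and 7.27% against 5.24% at 20000 or more. Median Scrublet doublet scores were higher in double-gate barcodes than in oocytes, at 0.038 against 0.021 (DEHP_MLT) and 0.077 against 0.05 (MLT), with 0.03 and 0.033 in the granulosa class.

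**Figure D2:**
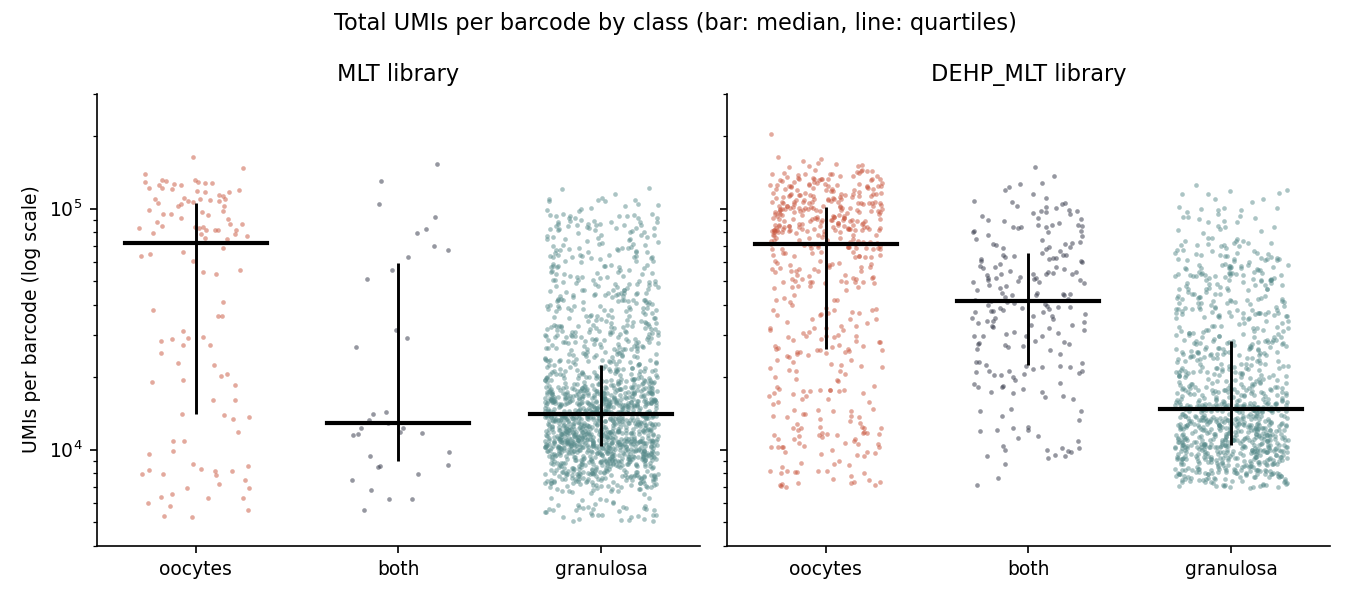
UMIs per barcode (vertical, logarithmic) in oocytes, double-gate barcodes and the granulosa class of each library; points are barcodes, the bar is the median and the line spans the quartiles. Double-gate barcodes had medians of 41328.5 (DEHP_MLT) and 12924 (MLT), below the oocyte medians of 71536 and 71866.

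Among germ-gated barcodes the double-gate share changed with depth. Within the DEHP_MLT library it was highest, 47.7% (63 of 132), between 20000 and 40000 UMIs. It was 7.14% (5 of 70) at 120000 UMIs or more. The lowest share was thus that of the deepest germ-gated barcodes. In the MLT library, 21 of the 35 barcodes were under 20000 UMIs.

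The part of each barcode carried by each cell type was estimated by a non-negative least-squares fit to the mean profiles of oocytes, granulosa, stroma, endothelial, immune and erythroid barcodes, with the 5 gate genes left out and each other gene divided by the square root of its mean profile level. The granulosa profile took a median of 26.8% of the transcripts (quartiles 19.0% and 34.4%) in the 214 barcodes labelled DEHP_MLT and 28.9% (13.2% and 47.7%) in the 35 labelled MLT. The oocyte profile took 68.7% and 54.7%. Oocytes had a median granulosa share of 0 in both libraries, with 95th percentiles of 14.8% and 10.3%. In UMIs, the granulosa part had a median of 10844 and the oocyte part 30249 in the DEHP_MLT library. These were 5120 and 8085 in the MLT library. A whole granulosa barcode had medians of 14734 and 14023 UMIs, and a whole oocyte barcode 71536 and 71866. By this weighted fit the granulosa part was thus closer in size to a whole granulosa barcode than the oocyte part was to a whole oocyte barcode. The comparison is bound to this weighting. Without gene weights the median granulosa share was only 2.83% (DEHP_MLT) and 1.58% (MLT), so no conclusion on whole cells is drawn from it.

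**Figure D3:**
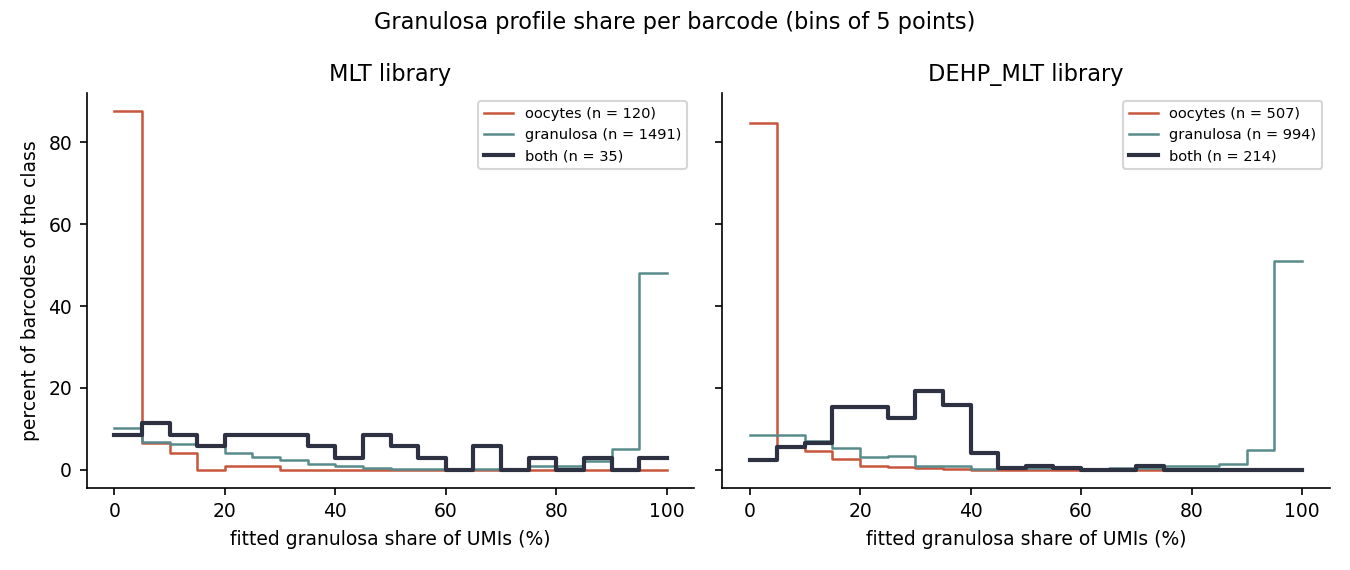
Percent of the barcodes of each class (vertical) by fitted granulosa share in percent (horizontal, 5-point bins) for oocytes, double-gate barcodes and the granulosa class in each library. Double-gate barcodes centre on 26.8% (DEHP_MLT) and 28.9% (MLT), oocytes on 0, and the granulosa class has a second group at low shares.

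The size of this share depended on the weighting. Without gene weights the medians were 2.83% and 1.58%, but that fit gave the granulosa class itself only 66.1% and 45.0%, where the weighted fit gave 95.7% and 93.7%. Summed over barcodes, 29.3% and 25.3% of the UMIs placed on either of the oocyte and granulosa profiles were on the granulosa one. The weighted fit was also uneven in the granulosa class, whose lower quartile was 16.1% and 16.6%, with shallow barcodes placed mostly on the stroma profile.

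The granulosa share ran from 0 to 71.8% in the 214 barcodes labelled DEHP_MLT. It was under 10% in 17 of them, 10% to 25% in 80, 25% to 50% in 112 and 50% to 75% in 5. The median UMI total went up along these bins, from 22162 to 33201, 53172 and 74804. Across these barcodes the share and the UMI total had r = 0.28 and rho = 0.34 (n = 214 barcodes of 1 library). Under the MLT title the relation had the other sign, with r = -0.39 and rho = -0.41 (n = 35). The 21 barcodes labelled MLT under 20000 UMIs had a median granulosa share of 39.6%, and the other 14 had 17.0%. They also differed in nuclear RNA (Malat1, Xist, Neat1 and others), at 309 against 20.7 UMIs per 10000, and in mitochondrial share, 2.45% against 7.27%. Granulosa barcodes labelled MLT under 20000 UMIs had 297 per 10000 of the same nuclear RNA. The part of nuclear RNA and depth in the granulosa share was not tested.

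Germ cell genes were lower in double-gate barcodes than in oocytes, by a similar proportion across lists. Levels are the summed UMIs of a list per 10000 UMIs of the class. For the DEHP_MLT library the germ cell RNA-binding list (Ddx4, Mael and others, which guard the germline genome or handle its RNA) stood at 69.7% of the oocyte level. The oocyte transcription factors (Nobox, Sohlh1, Lhx8 and others) were at 67.5% and the meiotic genes (Sycp1, Smc1b and others, of the chromosome axis and synapsis) at 62.7%. For the MLT library these 3 lists were at 63.9%, 52.4% and 58.9%. On a scale from the oocyte level (0%) to the granulosa level (100%), the double-gate barcodes labelled DEHP_MLT lay at 32.1% to 39.6% for these lists.

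Per gene, values are CPM, the UMIs of a gene divided by the summed UMIs of a class and scaled to 1000000. Smc1b, a meiotic cohesin subunit, had 517 CPM in double-gate barcodes and 818 CPM in oocytes of the DEHP_MLT library, and 503 and 941 CPM in the MLT library. Sohlh1, a transcription factor of early oocyte differentiation, had 327 against 567 CPM and 249 against 583 CPM. Nobox, which primordial follicles need to progress, had 221 against 287 CPM and 168 against 266 CPM. All 3 genes were lower in double-gate barcodes in both libraries.

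Gene by gene, a difference was counted where 2 levels were at least 2-fold apart on log2(CPM + 1), their 95% Poisson intervals did not overlap and either level reached 50 CPM. Of 3693 genes compared in the DEHP_MLT library, 257 were higher in double-gate barcodes than in oocytes (6.96%) and 7 were lower (0.19%), with a median log2 ratio of -0.20. Of 3866 genes in the MLT library, 197 were higher (5.1%) and 404 lower (10.5%), with a median of -0.45. None of the 7 meiotic genes compared in the DEHP_MLT library was counted higher and 1 was lower (median log2 -0.66), Tsga8 at 32.1 against 74.2 CPM. The RNA-binding list had 0 higher and 1 lower of 8 there (median -0.68), Rnf17 at 28.9 against 60.5 CPM. Ttn and Neb, large muscle-protein genes that are read here in germ cells, had 209 against 472 CPM and 129 against 273 CPM. Under the MLT title, Neb had 92.2 against 442 CPM and Mov10l1, a piRNA-pathway helicase, 86.6 against 286 CPM. These lower genes are ones in which the oocyte level was far above 0.

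**Figure D4:**
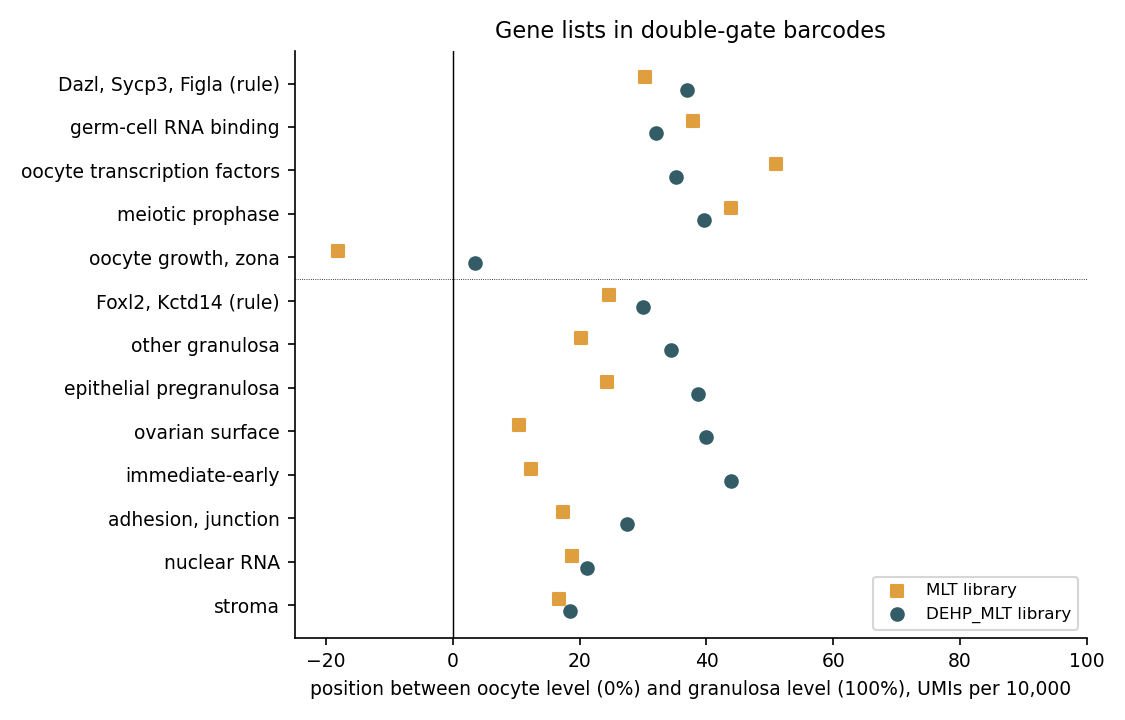
Position of double-gate barcodes (points) on the scale from the oocyte level at 0% to the granulosa level at 100%, in UMIs per 10000, for gene lists of germ cells (above the dotted line) and of somatic cells (below it) in the 2 libraries. Most lists lie between 10.4% and 51.0%, while oocyte growth and zona genes lie at 3.47% (DEHP_MLT) and -18.2% (MLT).

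Granulosa genes other than the gate genes were present at intermediate levels. The 22 other granulosa genes summed to 9.89 UMIs per 10000 in double-gate barcodes labelled DEHP_MLT, against 1.36 in oocytes and 26.2 in the granulosa class. Within the MLT library they summed to 8.14, 2.21 and 31.6. All 9 of the genes compared in the DEHP_MLT library were counted higher than in oocytes (median log2 3.11), and 5 of 6 in the MLT library (median 2.35). Because the rule selects granulosa UMIs, these counts describe the barcodes and support nothing.

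Fst, the activin antagonist follistatin, had 84.7 CPM in double-gate barcodes, 4.42 CPM in oocytes and 206 CPM in the granulosa class labelled DEHP_MLT. Under the MLT title Fst had 76.2, 4.34 and 230 CPM. Amhr2, the receptor for anti-Müllerian hormone, had 116, 10.1 and 261 CPM in the DEHP_MLT library and 77.0, 17.2 and 304 CPM in the MLT library. Wt1, a transcription factor of the gonadal soma, had 110, 16.5 and 354 CPM, and 110, 21.2 and 359 CPM. Inha, the inhibin alpha subunit, had 81.0, 8.99 and 201 CPM, and 69.8, 12.6 and 239 CPM. For all 4 genes the double-gate level lay between those of the other 2 classes in each library. Fshr and Cyp19a1, genes of later follicles, had 1 and 3 UMIs in all double-gate barcodes labelled DEHP_MLT and 0 in those labelled MLT.

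Genes of the epithelial pregranulosa cells, the later-arising lineage that populates the ovarian cortex, were found as well. Their list (Lgr5, Gng13, Aldh1a1 and others) summed to 5.48 per 10000 in double-gate barcodes labelled DEHP_MLT, against 0.595 in oocytes and 13.2 in the granulosa class. In the MLT library the sums were 3.71, 0.676 and 13.2. Gng13, a G protein gamma subunit, had 231 CPM against 23.7 CPM in oocytes in the DEHP_MLT library, and 111 against 18.0 CPM in the MLT library. Genes of the ovarian surface epithelium (Upk3b, Krt19 and others) lay at 39.9% of the way from oocytes to granulosa in the DEHP_MLT library and at 10.4% in the MLT library. Krt19, a keratin, had 131 CPM in double-gate barcodes labelled DEHP_MLT and 48.1 CPM in those labelled MLT, while the granulosa class had 277 and 298 CPM.

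Markers of other cell types were present to different degrees. Stromal genes summed to 5.64 per 10000 in double-gate barcodes labelled DEHP_MLT, 2.13 in oocytes and 21.1 in the granulosa class, that is 18.5% of the way. Within the MLT library the stromal position was 16.8%. Of the stromal genes compared, 4 of 4 (DEHP_MLT) and 3 of 4 (MLT) were counted higher than in oocytes. Endothelial genes summed to 0.421 and immune genes to 0.351 per 10000 in double-gate barcodes labelled DEHP_MLT, against 0.243 and 0.270 in oocytes and 1.14 and 0.284 in the granulosa class. Those labelled MLT had 0.762 and 0.297, against 0.404 and 0.225 in oocytes and 0.892 and 0.346 in the granulosa class. All 8 endothelial genes had a UMI in both sets. Ptprc, the pan-leukocyte marker, had 0.681 CPM in double-gate barcodes labelled DEHP_MLT and 0 UMIs in those labelled MLT. Erythroid genes summed to 116 per 10000 in double-gate barcodes, 71.3 in oocytes and 121 in the granulosa class of the DEHP_MLT library, so haemoglobin transcripts were spread over all 3 classes of that library. Among MLT barcodes they summed to 20.1, 3.15 and 14.9, and 4 of 4 erythroid genes compared were counted higher than in oocytes (median log2 2.65). The medians over MLT barcodes were 3.58, 3.09 and 4.13, so the MLT sum rests on few barcodes. The part of blood transcripts in the other differences was not tested. The globin genes are near-identical copies whose counts may be split between them.

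Summed over double-gate barcodes, both sides of oocyte and granulosa signalling pairs were read. Kit, the receptor on oocytes, had 92.2 CPM in double-gate barcodes labelled DEHP_MLT, 172 in oocytes and 9.17 in the granulosa class. Kitl, its ligand from granulosa cells, had 69.0, 6.33 and 224 CPM. Among MLT barcodes Kit had 89.8, 269 and 9.81 CPM, and Kitl 69.0, 11.8 and 310 CPM. Relative to oocytes the receptor was thus lower and the ligand higher in both libraries. A UMI of each gene was found in the same barcode in 172 of 214 double-gate barcodes labelled DEHP_MLT (80.4%) and 28.6% of oocytes, and in 22 of 35 (62.9%) and 41.7% in the MLT library. After thinning to 5000 UMIs these shares were 9.35% against 0.986%, and 22.9% against 2.5%. Endothelial barcodes, which also express Kit and Kitl, had 5.97% and 8.60% after thinning. Before thinning they had 37.3% and 72.0%, the latter above the share of double-gate barcodes labelled MLT.

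The gap junction genes were split in the same way. Gja4, the connexin of the oocyte, had 128 CPM in double-gate barcodes, 158 in oocytes and 11.0 in the granulosa class of the DEHP_MLT library. Gja1, the connexin between granulosa cells, had 29.5, 2.92 and 95.7 CPM. Under the MLT title Gja4 had 96.3, 185 and 7.48 CPM, and Gja1 29.7, 4.21 and 117 CPM. After thinning, both were found in the same barcode in 5.14% of double-gate barcodes and 0.592% of oocytes labelled DEHP_MLT. Under the MLT title it was 0 of 35 and 1.67%. Of the adhesion and junction list, 3 of the 7 genes compared were counted higher than in oocytes in the DEHP_MLT library and 3 of 9 in the MLT library, with none lower. Among all genes compared, 6.96% (DEHP_MLT) and 5.1% (MLT) were higher, and 0.19% and 10.5% lower. Itga6, the laminin-binding integrin alpha 6, had 189 against 41.5 CPM and 203 against 54.4 CPM.

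Within the Notch pathway, through which oocyte ligands signal to pregranulosa receptors, the oocyte ligand Jag1 differed between the libraries. It had 40.9 CPM in double-gate barcodes against 28.5 in oocytes of the DEHP_MLT library, and 11.2 against 35.8 CPM in the MLT library. Jag2 had 62.7 against 99.7 CPM and 38.5 against 105.2 CPM, in the same order. Notch2, the receptor of pregranulosa cells, had 57.8 CPM in double-gate barcodes, 6.42 in oocytes and 50.1 in the granulosa class of the DEHP_MLT library. It had 20.9, 5.26 and 34.3 CPM in the MLT library. In the DEHP_MLT library the Notch2 level of double-gate barcodes was therefore as high as that of the granulosa class, although only a part of their transcripts fitted the granulosa profile. After thinning, Jag1 and Notch2 occurred together in 5.14% of double-gate barcodes and 0.789% of oocytes labelled DEHP_MLT. Jag2 and Notch2 did so in 6.54% and 1.58%. In the MLT library neither pair was more frequent than in oocytes, at 0 of 35 against 1.67% and 2.86% against 3.33%.

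Summed over barcodes, oocyte growth and zona pellucida genes were closer to the oocyte level than the other germ cell lists or above it, but this depended on depth and on few barcodes. The 18 genes summed to 51.9 UMIs per 10000 in double-gate barcodes and 53.6 in oocytes of the DEHP_MLT library, 96.8% of the oocyte level. Within the MLT library the sums were 73.2 and 62.6, or 117%. In the typical barcode the medians were 49.0 and 49.0 per 10000 in the DEHP_MLT library. Per MLT barcode the direction turned, with medians of 49.4 in double-gate barcodes and 57.8 in oocytes. Under 20000 UMIs the sums were lower than in oocytes in both libraries, 51.2 against 61.4 (DEHP_MLT) and 52.4 against 81.7 (MLT). Of the genes compared, 2 of 13 were counted higher than in oocytes in the DEHP_MLT library (median log2 0.43) and 4 of 15 in the MLT library (median 0.49), with none lower. The shares over all genes compared were 6.96% (DEHP_MLT) and 5.1% (MLT) higher, and 0.19% and 10.5% lower.

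Zp3, the zona sperm-receptor protein, had 322 CPM in double-gate barcodes and 209 CPM in oocytes of the DEHP_MLT library. For the MLT library Zp3 had 417 and 264 CPM. Npm2, the maternal histone chaperone nucleoplasmin, had 120 and 43.0 CPM in the DEHP_MLT library and 217 and 61.4 CPM in the MLT library. Gdf9, the oocyte growth factor, had 163 and 121 CPM, and 196 and 174 CPM. Dppa3, a maternal factor that protects DNA methylation, had 1698 and 2276 CPM, and 2334 and 2451 CPM. In these sums Npm2 and Zp3 were above the oocyte level in both libraries, and Dppa3 was below it in the DEHP_MLT library. The 5 highest barcodes held 72.2% of the Npm2 UMIs of double-gate barcodes labelled MLT, and 19.7% of those labelled DEHP_MLT. Without those 5 barcodes the MLT level of Npm2 was 94.1 CPM. For Zp3 the MLT level without its 5 highest barcodes was 246 CPM, under the 264 CPM of oocytes.

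Depth mattered for these genes. Within the DEHP_MLT library Npm2 had 84.0 CPM in double-gate barcodes and 121 CPM in oocytes under 20000 UMIs. Npm2 had 141 against 66.9 CPM between 20000 and 40000 UMIs, 149 against 23.8 between 40000 and 80000, and 82.7 against 42.2 above that. Zp3 had 292 against 318 CPM under 20000 UMIs and 374 against 132 between 40000 and 80000. The higher levels were thus found at middle and high depth and not in the shallowest barcodes.

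Immediate-early and heat-shock genes, which are raised within minutes by signals and by tissue dissociation, were higher than in oocytes. They summed to 55.8 UMIs per 10000 in double-gate barcodes, 21.8 in oocytes and 99.3 in the granulosa class of the DEHP_MLT library. In the MLT library the sums were 31.0, 19.2 and 115. Of the genes compared, 15 of 16 were counted higher than in oocytes in the DEHP_MLT library and 9 of 11 in the MLT library. Jun, a subunit of the AP-1 transcription factor, had 796 CPM in double-gate barcodes, 100 in oocytes and 1916 in the granulosa class labelled DEHP_MLT. Across barcodes the list's level and the granulosa share had r = 0.52 (n = 214) in the DEHP_MLT library and r = 0.86 (n = 35) in the MLT library. Both measures share the barcode's UMIs, and the list's genes were part of the fit that gave the share. The relation is thus partly built in.

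To set the barcodes against a sum of their sources, an expected level was computed for each gene from the oocyte and granulosa profiles in the proportions of 29.3% (DEHP_MLT) and 25.3% (MLT) granulosa, with the 5 gate genes left out. For the DEHP_MLT library 7 of 3489 genes were counted higher than expected (0.201%) and 2 lower (0.0573%), with a median log2 ratio of -0.04. Under the MLT title 22 of 3766 were higher (0.584%) and 173 lower (4.59%), with a median of -0.37. Few genes of the DEHP_MLT library therefore departed from the sum of 2 cell types by this rule. The proportions were fitted to the same barcodes, so this closeness is partly built in.

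The 7 genes above the expected level in the DEHP_MLT library were Rpgrip1, Npm2, Slc39a1, Notch2, Khdc3, Atf3 and Zp3. Rpgrip1, which encodes a protein of the ciliary transition zone, had 217 CPM (208 to 226) where 56.1 were expected, a log2 ratio of 1.93. Slc39a1, a zinc importer, had 98.7 CPM where 30.5 were expected. Khdc3, of the maternal complex beneath the egg membrane, had 64.3 CPM where 22.3 were expected. Npm2, Khdc3 and Zp3 belong to the growth and zona list, of which 3 of 13 were counted higher (median log2 0.87). For the MLT library 6 of 15 were (median 0.87). There Zar1, a maternal RNA-binding protein, had 52.9 CPM where 9.26 were expected, Npm2 had 217 where 48.2 were expected, and Elobl had 150 where 38.2 were expected. A single barcode of 31293 UMIs held 39 of the 66 Zar1 UMIs in MLT double-gate barcodes, and without it Zar1 had 22.2 CPM. Under 20000 UMIs Zar1 had 42.6 CPM in double-gate barcodes and 42.5 CPM in oocytes. Elobl had 95.1 CPM without its highest barcode.

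Acta2 and Sparcl1, the 2 genes below the expected level in the DEHP_MLT library, had 26.5 CPM where 57.8 were expected and 29.9 where 62.3 were expected. Acta2 encodes smooth muscle actin, and Sparcl1, a matrix-associated protein, is outside the naming rule and was named after its values were seen. Both log2 ratios, -1.10 and -1.03, turned to 0.63 and 0.52 when granulosa barcodes with stromal transcripts were left out of the granulosa profile. Their direction thus followed the make-up of the reference.

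**Figure D5:**
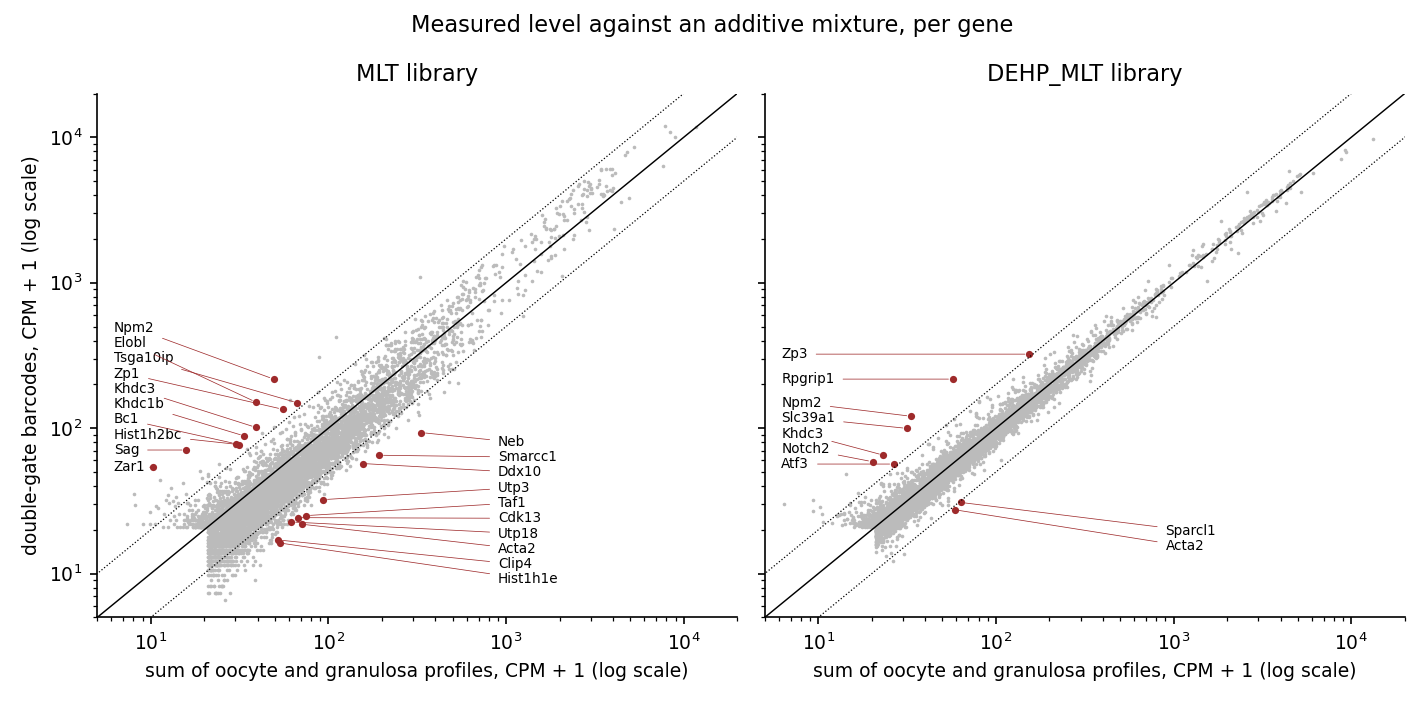
Level in double-gate barcodes (vertical, CPM + 1, logarithmic) against the level expected from the oocyte and granulosa profiles (horizontal, CPM + 1, logarithmic) in each library. Points are genes at 20 CPM or more on either axis, the gate genes included, so more genes are shown than were compared. The solid line marks equal levels, dotted lines 2-fold differences, and red points are the named genes. In the DEHP_MLT library 7 of 3489 genes were counted above the expected level, with Rpgrip1 farthest at a log2 ratio of 1.93.

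A weighted average of 2 class profiles cannot exceed the higher of them, so genes above both were counted after the values had been seen. This limit holds for the class levels and not for each oocyte. In DEHP_MLT oocytes Npm2 had 121 CPM under 20000 UMIs and 23.8 CPM between 40000 and 80000. Whether double-gate barcodes held oocytes with levels above the class level was not tested. Within the DEHP_MLT library 100 of 3259 genes were above both source levels with intervals apart (3.07%), and 3 of them by at least 2-fold (0.0921%). These were Rpgrip1 at 3.18-fold the higher source, Npm2 at 2.75-fold and Khdc3 at 2.10-fold. In the MLT library 261 of 2864 were above both (9.11%) and 7 by at least 2-fold (0.244%), led by Zar1 at 4.34-fold and with Npm2 at 3.49-fold and Khdc3 at 2.02-fold. Several of the MLT values rest on single barcodes, and the barcode of 31293 UMIs had the most UMIs of Zar1, Npm2, Khdc3 and Khdc1b. Without the highest barcode of each gene, the MLT ratio was 1.87-fold for Zar1, 2.72-fold for Npm2, 1.09-fold for Khdc3, 1.89-fold for Elobl, 1.12-fold for Sag and 1.33-fold for Khdc1b. Of these 6 MLT genes, Npm2 alone was still above 2-fold. Without the 5 highest barcodes the DEHP_MLT ratio was 2.28-fold for Npm2 and 1.76-fold for Khdc3.

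Rpgrip1 was followed further because of its size. For the DEHP_MLT library Rpgrip1 had 67.3 CPM in oocytes and 28.8 CPM in the granulosa class. It had a UMI in 97.2% of double-gate barcodes (208 of 214), 87.0% of oocytes, 31.8% of granulosa barcodes and 16.1% of erythroid barcodes, which should lack it. After thinning to 5000 UMIs the shares were 68.2% of double-gate barcodes, 31.4% of oocytes and 9.56% of granulosa barcodes. The gene was therefore widespread among double-gate barcodes and not held by a few: the 5 highest barcodes had 6.47% of its UMIs.

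Rpgrip1 was higher in double-gate barcodes than in oocytes at every depth in the DEHP_MLT library. The levels were 392 against 169 CPM under 20000 UMIs, 307 against 148 between 20000 and 40000, 219 against 75.2 between 40000 and 80000, and 144 against 53.7 above that. Along the Foxl2 and Kctd14 sum of germ-gated barcodes, Rpgrip1 went from 58.7 CPM below 0.5 to 156 CPM at 1 to 2, still outside the granulosa gate. It was 236 CPM at 3 to 5 and 187 CPM at 10 or more. The median depth of these ranges was 82626, 27088, 37426 and 35809 UMIs. In oocytes Rpgrip1 was also higher at lower depth, and the part of depth along this sum was not tested. Within the MLT library Rpgrip1 had 35.3 CPM in double-gate barcodes and 38.5 CPM in oocytes, so the pattern was seen in 1 library of 2.

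Slc39a1 and Notch2 were also higher at each depth in the DEHP_MLT library. Slc39a1 had 120 against 34.8 CPM under 20000 UMIs and 78.4 against 19.0 CPM at 80000 or more. Notch2 had 73.0 against 15.4 CPM and 49.0 against 4.55 CPM in the same ranges. Atf3, a stress-responsive transcription factor, had 29.2 against 4.05 CPM and 72.1 against 4.71 CPM. Under 20000 UMIs Rpgrip1, Slc39a1, Notch2 and Atf3 were thus higher than in oocytes, while Npm2 and Zp3 were not. Slc39a1, Notch2 and Atf3 were also higher in the granulosa class than in oocytes, at 50.4, 50.1 and 75.9 CPM in the DEHP_MLT library. Over all depths their double-gate levels were 1.94-fold, 1.15-fold and 0.737-fold those granulosa levels. Rpgrip1 was lower in the granulosa class than in oocytes. The part of granulosa transcripts in these differences from oocytes was not tested.

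Between the libraries, 98 of 3423 genes were counted higher in double-gate barcodes labelled DEHP_MLT than in those labelled MLT (2.86%) and 27 lower (0.789%), with a median log2 ratio of 0.17. In oocytes the same ratio gave 11 of 3715 higher (0.296%) and 13 lower (0.35%), and in the granulosa class 13 of 3595 higher (0.362%) and 48 lower (1.34%). The double-gate barcodes of the libraries differed in depth, with medians of 41328.5 and 12924 UMIs, and treatment, library and depth cannot be told apart. The directions hold for the sample titles and would reverse with the table names.

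Genes of neutrophils and red cells were higher in the DEHP_MLT library. S100a8, a calcium-binding protein of neutrophils, had 78.1 against 5.62 CPM, and S100a9 had 107 against 8.82 CPM. All 5 erythroid genes compared were higher (median log2 2.64), as were all 4 compared in oocytes (4.43) and in the granulosa class (3.06). Blood transcripts thus differed between the libraries in all 3 classes. Mt1 and Mt2, metal-binding metallothioneins, had 591 against 125 CPM and 132 against 34.5 CPM. Mt1 was also counted higher in oocytes (78.7 against 33.6 CPM) and in the granulosa class (1237 against 528 CPM). Rpgrip1 and Slc39a1 were 217 against 35.3 CPM and 98.7 against 15.2 CPM.

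Genes of antigen presentation were lower. H2-Ab1, an MHC class II chain, had 1.27 CPM in double-gate barcodes labelled DEHP_MLT and 71.4 CPM in those labelled MLT, and Cd74, the MHC class II invariant chain, had 2.92 and 81.8 CPM. Of the MHC and interferon list, 10 of 12 genes were counted lower in double-gate barcodes (median log2 -2.84), 12 of 14 in the granulosa class (-3.21) and 4 of 6 in oocytes (-1.39). Lower genes of this list were thus found in all 3 classes, but they were not the same genes. Among the 10 lowest ratios in oocytes were Gbp7 (1.04 against 64.0 CPM), Irf1, B2m and Bst2. No MHC class II chain and no Cd74 was among those 10. Close MHC copies may share reads, so single members are uncertain.

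Immediate-early and ovarian surface genes differed in double-gate barcodes between the libraries. Of the immediate-early list 8 of 16 genes were higher in those labelled DEHP_MLT (median log2 0.95), against 0 of 19 in the granulosa class (-0.26) and 0 of 9 in oocytes (0.19). The direction turned under 20000 UMIs, where the list summed to 50.2 per 10000 in double-gate barcodes labelled DEHP_MLT (41 barcodes) and 57.9 in those labelled MLT (21). At 20000 UMIs or more the sums were 56.1 and 25.5. All 4 surface genes compared were higher in double-gate barcodes (median 1.56), and 0 of 6 in the granulosa class (0.03). Their list also turned with depth, with 2.24 (DEHP_MLT) and 2.56 (MLT) per 10000 under 20000 UMIs, and 5.50 and 1.72 at 20000 or more. Whether these differences depart from those of the granulosa class was not tested.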

How the data were processed

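Ovaries of the 2 groups were profiled by the 10x Genomics 3′ assay. Per the submitters' processing notes the authors used Cell Ranger (its version is not given) and Seurat 4.2.0 with build mm9. For each library the authors deposited a table of raw UMI counts per gene and barcode, not normalized, holding 80657690 UMIs in 5277 barcodes (MLT) and 117355739 in 4819 (DEHP_MLT), over 21018 shared genes. The lowest barcode totals were 2031 and 6923 UMIs, so the minimum of 5000 removed barcodes from the library labelled MLT alone. The median totals were 10834 and 13161.

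The members, gene lists and comparisons were chosen with earlier results of these data known. Barcodes were classed by the gates given above. UMIs were summed per class, expressed as CPM and compared on log2(CPM + 1) with exact Poisson intervals, for genes with 50 CPM or more in either class. Shares have Clopper-Pearson intervals. Named genes are up to 10 with the largest log2 ratio in each direction among those counted, leaving out mitochondrial, ribosomal, haemoglobin and unnamed genes, plus genes of the lists. The minimum was planned for the double-gate class alone, and was applied to either class so that lower genes could be counted. Free RNA in droplets adds UMIs of genes a cell does not express. Scrublet called 0 and 3 barcodes, too few to have worked, so no doublets were removed and its scores are given only as values. The profile fit was also run on simulated sums of an oocyte and a granulosa barcode, drawn from the reference classes and set to a single depth. Double-gate barcodes vary in depth, so the fitted shares are not taken as checked by that run. Alternatives were other gates, UMI minimums, thinning, pseudocounts, level filters, equal barcode weights and other reference profiles. Python 3.11.15, numpy 2.4.6, scipy 1.17.1, pandas 2.3.3, scanpy 1.11.5 and matplotlib 3.10.9 were used.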

Additional observations from a re-analysis of the deposited data

How the results depend on the processing

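No paired analysis was possible because each group had 1 library, and no library could be left out for the same reason. Of the alternatives to the summary results, 59 left the value close to the main one and 49 moved it; of those to single genes, 304 left it, 92 moved it and 2 reversed it. The cause was not tested unless the alternative's construction gives it. The alternatives chosen after seeing the data were the unweighted fit, pooled profiles, the granulosa reference without stroma, the minimum of 20000 UMIs and leaving out the highest barcode of a gene. That last one moved all 6 MLT genes for which it was run, with Khdc3 at 0.48 and Sag at 0.48 on the log2 scale over the mixture, and left the 7 DEHP_MLT genes close, although Atf3 at 0.97 was then under 2-fold. The number of double-gate barcodes labelled MLT (35) became 4 with a germ sum of 20, 68 after thinning to 5000 UMIs and 14 at a minimum of 20000 UMIs; the number labelled DEHP_MLT (214) became 12 with a germ sum of 20. The median granulosa share in the MLT library (28.9%) became 20.2% at a minimum of 10000 UMIs, 14.7% at 20000, 40.5% with a granulosa gate of 4, 8.54% with a germ sum of 20, 1.58% unweighted and 20.2% without stroma in the reference. In the DEHP_MLT library (26.8%) it became 10.3% with a germ sum of 20, 22.7% after thinning, 30.3% with the oocyte and granulosa profiles alone, 2.83% unweighted and 21.9% without stroma.

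Filters changed the counts of genes because they change how many are compared. With genes from 20 CPM, double-gate barcodes labelled MLT had 480 genes higher and 747 lower than oocytes, and with no filter 1138 and 930. With equal weight per barcode the counts were 461 and 198, and at 20000 UMIs 860 were lower. Against the expected mixture the MLT library had 49 higher and 397 lower from 20 CPM, 138 and 608 with no filter, 99 and 57 with equal weights, and 35 and 685 at 20000 UMIs. In the DEHP_MLT library the counts against oocytes were 629 higher and 14 lower from 20 CPM, and 2085 and 42 with no filter. Against the mixture they were 16 and 4 from 20 CPM, 64 and 17 with no filter, and 13 and 7 with equal weights. The lower count was 0 with a pseudocount of 5, 1 at 20000 UMIs and 0 without stroma. Between the libraries the counts were 242 higher and 63 lower from 20 CPM, and 422 and 227 with no filter. At 20000 UMIs 242 were higher, and with equal weights 239 were lower. The log2 ratios of Acta2 (0.63) and Sparcl1 (0.52) over the mixture reversed without stroma in the reference, in the DEHP_MLT library. Depth limits the MLT library most, since its 35 double-gate barcodes rest on few deep ones.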

Other observations

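Of the 15 genes of the apoptosis list 2 were compared with oocytes in each library and neither was counted as different, beside the 6.96% higher and 0.19% lower among all genes compared in the DEHP_MLT library. Trp63, which encodes the p63 guardian of the oocyte pool, had 25.1 CPM in double-gate barcodes, 43.0 in oocytes and 3.27 in the granulosa class of the DEHP_MLT library. Bax, a pro-apoptotic effector, had 209, 279 and 104 CPM there. Genes of the cell cycle summed to 16.5 UMIs per 10000 in double-gate barcodes, 16.7 in oocytes and 16.7 in the granulosa class of the DEHP_MLT library. Of the cell cycle genes compared, 1 of 9 (DEHP_MLT) and 1 of 11 (MLT) were counted higher than in oocytes and 0 lower. Among all genes compared in the MLT library 5.1% were higher and 10.5% lower. Counts of 1 gene are near these shares, and no result is drawn from them.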
